A study of Homo sapiens with 8 samples.

Results

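The end of the long arm of human chromosome 19, from 50 Mb to its last mapped fragment, was followed through S phase in wild-type (WT) and CFAP20-KO cells. It was taken as 431 consecutive windows of 20 kb, of 143706 such windows on the autosomes. The stretch was chosen because earlier values from the same data held fewer labelled molecules there in CFAP20-KO cells, so the number and the timing of molecules in WT against CFAP20-KO cells are given as descriptions, and nothing is supported with them. Differences in timing between gene clusters within WT cells did not enter that choice and were tested. The windows hold 291 protein-coding genes. MicroRNA genes were listed only around the C19MC cluster, 51 in all. Of these, 50 are of the C19MC and MIR371 to MIR373 group, and the last is MIR935, which lies farther on. MicroRNA genes elsewhere in the stretch were not listed.

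The method, single-cell EdU sequencing (scEdU-seq), reads the stretches of DNA that a single cell made while a thymidine analogue, EdU, was present. RPE-1 hTERT is a line of human retinal pigment epithelial cells made immortal with telomerase. WT cells and cells in which CFAP20 was knocked out both received a pulse of 10 µM EdU for 15 min and no other treatment, were fixed in ethanol and were sorted into wells of 8 plates, each plate with both genotypes. CFAP20 is a protein of cilia and flagella, and the title of the series names it as a factor that frees arrested RNA polymerase II from the path of replication forks. The sources used here give neither the number of knockout clones nor whether each plate had its own culture. The p-values therefore measure spread between plates only, which may be technical. The files hold labelled DNA only, which shows neither loss of CFAP20 nor the cell type, and the amount of unlabelled DNA in a cell was not measured. The genotype of each cell came from a column of the files, because the genotype field of the labels says CFAP20-KO for every plate while the titles give both genotypes.

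Mammalian chromosomes copy their DNA in a fixed order, in which gene-rich, transcribed domains are usually copied early in S phase and compact domains late. The end of chromosome 19 is built largely of tandem gene families. It holds the kallikrein proteases (KLK), the sialic acid receptors of immune cells (SIGLEC), the formyl peptide receptors of phagocytes (FPR), and the leukocyte and killer-cell immunoglobulin-like receptors (LILR and KIR). It also holds NLRP genes, several of which act in oocytes and early embryos, a primate microRNA cluster active in placenta (C19MC), and long arrays of zinc finger genes (ZNF), most of them KRAB repressors that silence transposable elements together with TRIM28. Many of these receptor genes are used in blood cells rather than in epithelium, while zinc finger promoters are mostly rich in CpG dinucleotides.

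Promoter sequences make part of that contrast visible, although KIR promoters were also mostly rich in CpG. The sequences are those of RefSeq on GRCh38.p14, 250 bases before to 50 bases after the start of the gene, written 5′ to 3′ on the strand of the gene, with each CpG in capitals. SIGLEC5 (chr19:51630352-51630651, minus strand) and SIGLEC14 (chr19:51646776-51647075, minus strand) are shown because they lie in the 3 windows with the lowest fitted ratio of CFAP20-KO to WT molecules, and because their promoters are alike. ZNF577 (chr19:51887902-51888201, minus strand) and NLRP8 (chr19:55947582-55947881, plus strand) are called genes of other families, and POLD1 (chr19:50384073-50384372, plus strand) is a landmark near the start of the stretch.

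SIGLEC5: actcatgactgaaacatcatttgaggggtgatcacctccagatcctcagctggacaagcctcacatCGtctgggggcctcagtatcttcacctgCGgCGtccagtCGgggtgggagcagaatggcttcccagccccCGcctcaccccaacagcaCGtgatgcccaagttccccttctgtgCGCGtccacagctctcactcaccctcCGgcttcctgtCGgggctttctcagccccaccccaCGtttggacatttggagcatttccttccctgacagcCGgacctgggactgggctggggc
SIGLEC14: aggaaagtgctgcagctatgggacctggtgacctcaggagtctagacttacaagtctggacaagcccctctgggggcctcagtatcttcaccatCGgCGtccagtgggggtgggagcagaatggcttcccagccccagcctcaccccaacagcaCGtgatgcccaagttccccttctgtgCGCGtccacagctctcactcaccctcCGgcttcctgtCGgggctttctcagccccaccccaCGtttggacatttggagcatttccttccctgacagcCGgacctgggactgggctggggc
ZNF577: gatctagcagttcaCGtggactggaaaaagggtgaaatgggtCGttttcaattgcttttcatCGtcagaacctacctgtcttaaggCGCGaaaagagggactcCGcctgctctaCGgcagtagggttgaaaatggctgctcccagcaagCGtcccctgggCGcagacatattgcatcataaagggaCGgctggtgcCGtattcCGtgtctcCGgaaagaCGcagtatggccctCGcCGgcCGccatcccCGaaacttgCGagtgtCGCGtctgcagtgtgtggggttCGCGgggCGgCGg
NLRP8: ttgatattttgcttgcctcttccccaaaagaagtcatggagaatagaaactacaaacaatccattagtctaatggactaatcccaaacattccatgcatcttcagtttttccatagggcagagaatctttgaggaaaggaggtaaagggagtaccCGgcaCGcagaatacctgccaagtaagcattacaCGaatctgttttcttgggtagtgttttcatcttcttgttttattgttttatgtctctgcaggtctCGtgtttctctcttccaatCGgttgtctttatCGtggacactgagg
POLD1: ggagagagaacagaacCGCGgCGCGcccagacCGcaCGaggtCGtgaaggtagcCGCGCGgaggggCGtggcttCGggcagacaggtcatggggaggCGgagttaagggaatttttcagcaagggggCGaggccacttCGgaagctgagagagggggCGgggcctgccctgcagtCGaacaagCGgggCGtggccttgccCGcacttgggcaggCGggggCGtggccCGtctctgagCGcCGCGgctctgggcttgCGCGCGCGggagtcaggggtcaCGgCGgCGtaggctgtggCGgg

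The SIGLEC5 and SIGLEC14 promoters share 245 of 300 bases without gaps, and the last 163 bases are identical. The gene bodies, from which molecules were counted, were not compared, so whether fragments could be placed on the wrong gene of this pair was not tested. ZNF577 has 25 CpG and POLD1 34, against 12 in SIGLEC5, 9 in SIGLEC14 and 6 in NLRP8. Of the 291 genes, 238 had a RefSeq promoter in the table used. The zinc finger genes fall into a lower group, which ends at 55484487, and an upper group, which starts at 55576774. All 35 matched promoters of the lower group had at least 10 CpG, as did 59 of 61 of the upper group. So did 3 of 10 SIGLEC, 3 of 13 KLK, 0 of 2 FPR and 1 of 9 LILR promoters. Of the NLRP promoters 3 of 8 had as many, and of the KIR promoters 6 of 7. Among 26246 autosomal promoters of the same length, 55.8% had at least 10.

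The microRNA genes show the same repetition at a finer scale. Of the 51 genes listed around C19MC, 50 matched RefSeq entries with 89 mature sequences and 40 distinct seeds (bases 2 to 8, in capitals below). The seed UCUAGAG was shared by 11 genes and AAGUGCU by 7. The mature forms of MIR519C and MIR523 shown here are the same letter for letter, although the genes are separate, and MIR520A and MIR372 carry the second seed.

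hsa-miR-519c-5p: cUCUAGAGggaagcgcuuucug
hsa-miR-523-5p: cUCUAGAGggaagcgcuuucug
hsa-miR-520a-3p: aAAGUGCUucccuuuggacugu
hsa-miR-372-3p: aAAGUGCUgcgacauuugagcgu

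The 8 plates held 26148975 fragments in 3023 wells, 1746074 to 4181841 per plate, and each fragment was counted as 1 molecule. Cells with at least 1000 autosomal molecules were used, 1290 WT and 1140 CFAP20-KO, and the 16 libraries (the cells of 1 genotype on 1 plate) held 751662 to 2478540 autosomal molecules. All 378 well barcodes were used on more than 1 plate, 371 of them with both genotypes over the plates, since they index wells. Density is given relative to the median autosomal window of 20 kb, which is 1, after each library was scaled to its autosomal total. The intervals between plates carry counting error as well as biological spread, and the end of chromosome 19 held 57241 molecules in all.

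Over the whole stretch, CFAP20-KO cells held 70.4% of the WT density. WT plates lay between 0.785 and 0.881 with a median of 0.831, and CFAP20-KO plates between 0.515 and 0.616 with a median of 0.601. The genotypes did not overlap, and all 8 plates had the lower value in CFAP20-KO cells. The mean log2 ratio of CFAP20-KO to WT was -0.51 ± 0.11 (SD, n = 8). At the border of the stretch, the window just below 50 Mb had a relative density of 0.507 ± 0.347 in WT and 0.561 ± 0.452 in CFAP20-KO cells, and the window just above it 0.639 ± 0.370 and 0.660 ± 0.505 (SD, n = 8), and the genotypes overlapped on both sides of the border. The 20 Mb before it, from 30 to 50 Mb, had a log2 ratio of 0.01 ± 0.11, and 3 of 8 plates were lower there. With every cell given the same weight, instead of weights by molecules, the log2 ratio of the stretch was -0.27 ± 0.13 and again below 0 in 8 of 8 plates. Under that weighting the zone from 51 to 53 Mb stood at -0.35 ± 0.22 and that from 53 to 55 Mb at -0.20 ± 0.27, lower in 7 of 8 plates. These zones then differed by less than their SDs. The zone from 55 Mb on stood at -0.37 ± 0.10, and the spans of SIGLEC, lower and upper zinc finger genes at -0.22, -0.24 and -0.34.

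With cells weighted by molecules, the deficit was not even along the stretch. It was near 0 from 50 to 51 Mb, where the KLK genes begin, then -0.77 ± 0.18 from 51 to 52 Mb and -0.69 ± 0.12 from 52 to 53 Mb. It was -0.15 ± 0.24 from 53 to 54 Mb, and between -0.66 and -0.76 in each block of 1 Mb from 55 Mb on (log2 ratio, mean ± SD, n = 8). In the 5 blocks from 51 to 53 Mb and from 55 to 58 Mb, and in the last 0.62 Mb, the genotypes did not overlap in density and all 8 plates were lower in CFAP20-KO cells. From 50 to 51 Mb and from 53 to 54 Mb they overlapped, with 4 and 5 of 8 plates lower. Of 43 bins of 200 kb with molecules, 12 were lower in 8 of 8 plates, 7 of them next to each other from 51.4 to 52.8 Mb. Across all autosomes 3.17% of bins met that rule, and since the stretch was chosen on this contrast nothing is read from the comparison.

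**Figure D1:**
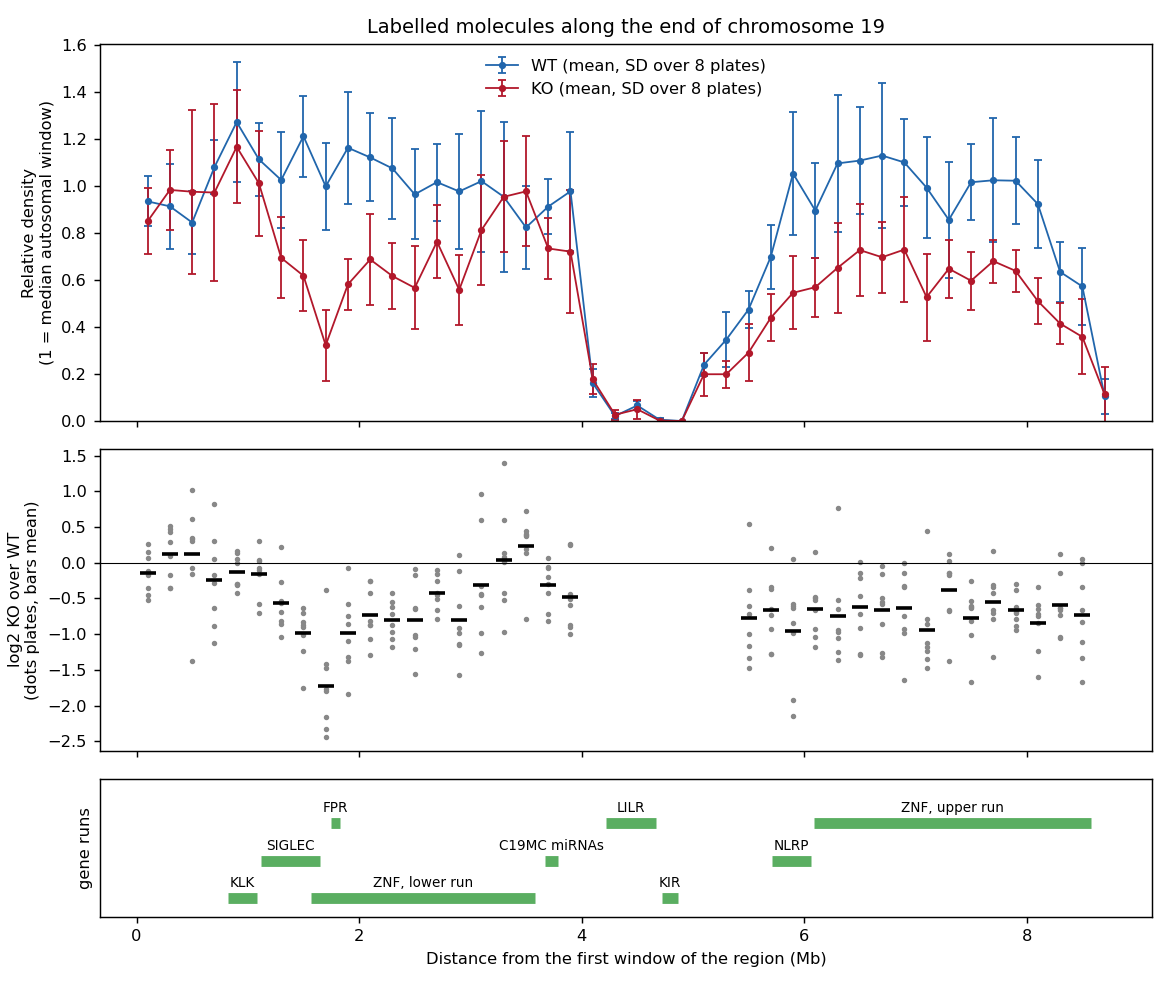
Relative density of labelled molecules in bins of 200 kb (top, mean and SD over 8 plates), log2 ratio of CFAP20-KO to WT per plate for bins with at least 500 molecules (middle, dots plates, bars means), and the densest run of each gene family (bottom), against the distance from the first window. The ratio is near 0 in the first Mb, lowest in the bin over SIGLEC5, SIGLEC14, SPACA6 and the first FPR genes, near 0 again over the end of the lower zinc finger run, and below 0 from the NLRP run to the end; the dip to 0 in both genotypes covers the LILR and KIR genes.

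A segment with a level of its own was fitted by least squares to the log2 ratios of the windows from 40 Mb on, summed over plates. The fit placed the edge of the lower side at 51.26 Mb, within the SIGLEC cluster. The fitted segment ran from 40120001 to this edge, and its 375 windows had a mean log2 ratio of -0.17. The 285 windows outside it had a mean of -0.68, which includes those before 40120001 as well as those beyond 51.26 Mb. In 4 of 8 single plates a fitted edge lay within 250 kb of 51.26 Mb, between 51.14 and 51.48 Mb. On plates 2 and 7 it ended a higher segment, which began at 48780001 and 40160001. On plates 4 and 6 it instead opened a short lower segment, up to 52.6 Mb (mean -1.62, other windows -0.29) and 53.14 Mb (-1.24 and -0.45). The remaining plates put their edges elsewhere, so the position is known from the sum and not from each plate. The 7.36 Mb on the lower side had 64.7% of the WT density and a log2 ratio of -0.63 ± 0.12 (SD, n = 8), lower in 8 of 8 plates, against -0.06 ± 0.24 from 50 Mb to the edge.

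Of the 431 windows, 346 had a mean of at least 5 molecules per library and entered the limma voom fit over 122999 autosomal windows; 85 did not, and 26 of these had no molecule. With Benjamini-Hochberg adjustment, 3 windows were called lower in CFAP20-KO cells and 0 higher, against 0.0797% and 0.00569% of all windows, from which nothing is read. Before adjustment, 96 of the 346 were lower and 0 higher with limma voom p under 0.05. The share over all windows was not counted, so nothing is read from this. The median fitted log2 difference of the 346 was -0.59, and -0.04 over all windows; 298 of the 346 were below 0. Signs differed by zone: 30 of 49 windows were below 0 from 50 to 51 Mb, 95 of 100 from 51 to 53 Mb, 33 of 51 from 53 to 55 Mb and 140 of 146 from 55 Mb on. In all 8 plates 22 windows were lower (0.852% of autosomal windows with a molecule) and 2 had genotypes that did not overlap (0.0818%).

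The 3 called windows follow each other from 51.6 to 51.66 Mb and contain SIGLEC5, an inhibitory receptor of myeloid cells, and SIGLEC14, its activating partner. The first, which SIGLEC5 covers only in part, held 0.53 to 2.60 in WT plates with a median of 1.01, and 0 to 0.497 in CFAP20-KO plates with a median of 0.196. The middle window ranged from 0.359 to 1.46 in WT and from 0 to 0.445 in CFAP20-KO plates, and the last from 0.608 to 1.8 and from 0 to 0.334. In the first and the last window no CFAP20-KO plate reached the lowest WT plate, while in the middle window the ranges overlapped. Fitted log2 differences were -2.82 ± 0.55, -2.73 ± 0.53 and -2.60 ± 0.52 (SE), with limma adjusted p of 0.00878, 0.00706 and 0.00916. Over 14 other settings of the fit these windows were called in 12, 13 and 11, with adjusted p from 0.000284 to 0.104. All losses came from leaving out a plate: plates 1 and 6 for the first, plate 3 for the middle and plates 3, 5 and 7 for the last window. With the plate as a block, 5 windows were called lower, and without plate 3 only 1 was.

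The genes repeat the picture of the windows. Of 291 protein-coding genes, 26 had no molecule and 78 a mean of at least 10 per library; of these, 10 were called lower and 0 higher by limma voom, against 1.2% and 0.203% of 8869 autosomal genes. Before adjustment, 35 of the 78 were lower and 0 higher with limma voom p under 0.05. The share over all genes was not counted, so nothing is read from this. The median fitted log2 difference was -0.65 over the 78 and -0.07 over all genes tested. Of the 78, 65 were below 0, and of the 8869 autosomal genes 5357. Genes that overlap share molecules, and EDDM13 and LOC124900420 have the same coordinates, so the 10 calls stand for fewer separate stretches. The count was 4 without plate 1 or 7, 6 without plate 2, 3 or 5, and 5 with cells of at least 5000 molecules. In 2 genes the genotypes did not overlap, ZNF577 and SIGLEC6, against 0.15% of all genes with a molecule; SIGLEC6 was singled out after its values were seen.

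Among the proteases, none of the 15 KLK genes passed the minimum, which short genes seldom reach here. Their joint span, from 50819146 to 51084210, was dense in both genotypes, 1.00 to 1.71 in WT and 0.894 to 1.49 in CFAP20-KO plates, and the ranges overlapped. The log2 ratio was -0.11 ± 0.23 with 7 of 8 plates below 0, and 0.022 with equal weight per cell. Plate 2 alone stood at 0.41. KLK5, a protease that sheds skin cells, held the most molecules of the family with 82 in WT and 58 in CFAP20-KO cells.

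The SIGLEC genes, most of them inhibitory receptors that read sialic acids on neighbouring cells, span 51119778 to 51646825, across the fitted edge. WT plates ranged from 0.925 to 1.45 and CFAP20-KO plates from 0.558 to 0.728, without overlap, and the log2 ratio was -0.71 ± 0.16. Within the family 3 of 10 genes passed the minimum and 1 was called. CD33, an inhibitory receptor of myeloid cells just before the edge (51211076 to 51240016), had medians of 0.896 in WT and 1.03 in CFAP20-KO plates, with a fitted log2 difference of 0.09 ± 0.33 (SE). SIGLEC5 (51610960 to 51630401) had medians of 1.32 and 0.135, with 158 molecules against 17, and a fitted log2 difference of -2.85 ± 0.45 with a limma adjusted p of 1.06e-05; it was called in each of the 10 other settings that tested it (1.10e-06 to 0.000534). SIGLEC14, below the minimum, held 30 molecules in WT and 1 in CFAP20-KO cells. From CD33 to SIGLEC5 the family thus passed from medians that lie close together to the lowest CFAP20-KO median of any called gene.

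Next to them, SPACA6, a sperm protein needed for fusion with the egg, ranged from 0.576 to 1.22 in WT and from 0 to 0.620 in CFAP20-KO plates. Its fitted log2 difference was -1.69 ± 0.41 (SE, limma adjusted p = 0.0154), below 0 in 8 of 8 plates; it was not called without plate 1 or without plate 7 (adjusted p 0.00901 to 0.140 over 12 settings). The 3 formyl peptide receptors, which steer phagocytes towards bacterial peptides, span 51745172 to 51826190. Their span ranged from 0.563 to 1.38 in WT and from 0.161 to 0.769 in CFAP20-KO plates, with a log2 ratio of -1.42 ± 0.83. It was -0.61 ± 0.95 with equal weight per cell and -1.97 ± 1.53 with cells of at least 5000 molecules. FPR3 was the only member to pass the minimum and was called, at -1.76 ± 0.44 (SE, limma adjusted p = 0.0161), but not without plate 1, 3 or 4 (0.00604 to 0.0985 over 12 settings). FPR1 held 39 molecules in WT and 6 in CFAP20-KO cells, and FPR2 62 and 14. The 200 kb that hold SIGLEC5, SIGLEC14, SPACA6 and the first FPR genes, from 51.6 to 51.8 Mb, had the lowest ratio of all bins, with 0.815 to 1.39 in WT, 0.160 to 0.623 in CFAP20-KO plates and a log2 ratio of -1.72 ± 0.66.

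**Figure D2:**
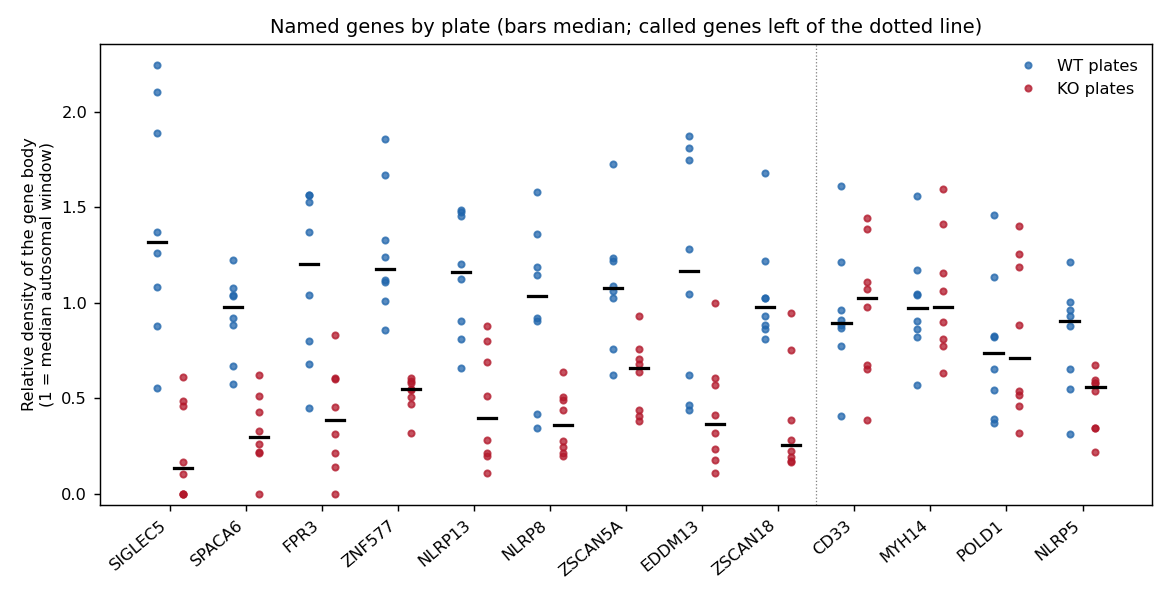
Relative density of the gene bodies of 9 called genes (left of the dotted line) and 4 other named genes in each of the 8 plates, WT in blue and CFAP20-KO in red, with bars at the medians. ZNF577 is the called gene whose plates do not overlap between genotypes; LOC124900420 has the coordinates of EDDM13 and is not drawn.

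The lower zinc finger genes number 43, of which 29 passed the minimum and 1 was called. Their densest run, 41 genes from 51571283 to 53580269, ranged from 0.819 to 1.18 in WT and from 0.621 to 0.718 in CFAP20-KO plates. No plate of CFAP20-KO cells reached the lowest WT plate, and the log2 ratio was -0.56 ± 0.19. ZNF577, a zinc finger gene whose 3′ end overlaps FPR3 and shares its molecules, ranged from 0.859 to 1.86 in WT and from 0.316 to 0.608 in CFAP20-KO plates. Its fitted log2 difference was -1.31 ± 0.24 (SE) with a limma adjusted p of 0.000248, and it was called in all 12 other settings. Along the run the sign turned: all 19 genes that passed and start below 53 Mb were below 0, while 6 of 10 from 53 Mb on were above 0, a border set after the values were seen. None of these 10 was called, and ZNF813 had the highest fitted value, 0.61 ± 0.32 (SE, limma adjusted p = 0.453), and was also named after its values were seen.

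The 50 microRNA genes of C19MC and of the MIR371 to MIR373 group lie between 53666679 and 53788773, and this run ranged from 0.646 to 1.08 in WT and from 0.495 to 0.997 in CFAP20-KO plates. The ranges overlapped, 7 of 8 plates were lower in CFAP20-KO cells, and the log2 ratio was -0.55 ± 0.58 over 891 molecules. With MIR935 the span reaches 53982397 and holds 2444 molecules, most of them beyond the cluster, with a log2 ratio of -0.51 ± 0.40.

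Further on, the leukocyte receptors left almost no molecules in either genotype. The LILR span, 54216278 to 54668718, held 145 molecules and a relative density of 0.039 ± 0.010 in WT and 0.033 ± 0.020 in CFAP20-KO plates, and 9 of 12 members had no molecule. The 7 KIR genes, receptors of natural killer cells for HLA class I, had 0 molecules over 54724442 to 54867207; 3 molecules, the limit that a count of 0 allows, would be a relative density of 0.00384 in WT and 0.00599 in CFAP20-KO cells, for counting error only. From 54 to 55 Mb, 23 of 50 windows had no molecule. The files also name 25 alternate contigs of chromosome 19 with LRC or KIR in their names, with 566 fragments in all, 42 to 101 per plate. Whether the way fragments were placed on these contigs bears on the gap was not tested, so no level or ratio is read for LILR and KIR genes, and NLRP7 and NLRP2, which lie in the same gap, also had 0 molecules.

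Of the 9 NLRP genes, 6 passed the minimum, all below 0, and 2 were called. Over all autosomal genes tested, 5357 of 8869 were below 0. The run of 6 members from 55708438 to 56061810 ranged from 0.843 to 1.26 in WT and from 0.390 to 0.617 in CFAP20-KO plates, without overlap, with a log2 ratio of -0.87 ± 0.35. NLRP13 (55891692 to 55932336) had medians of 1.16 and 0.394 and a fitted log2 difference of -1.47 ± 0.36 (SE, limma adjusted p = 0.0165). NLRP8 (55947832 to 55988629) had medians of 1.03 and 0.358 and a difference of -1.37 ± 0.38 (limma adjusted p = 0.0442). NLRP5, a maternal-effect gene of the oocyte and the member with the most molecules, had a difference of -0.71 ± 0.29 and was not called (limma adjusted p = 0.293). NLRP8 is close to the threshold, since it was called in 3 of 12 other settings and not with cells of at least 5000 molecules, with TMM scaling, with a minimum mean of 2 or without plates 1, 2, 3, 5, 6 or 7. NLRP13 was called in 9 of 12, not with cells of at least 5000 molecules or without plate 1 or 7 (limma adjusted p up to 0.179 and 0.124).

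Of the upper zinc finger array, 71 genes from 55576774 to 58573573, 21 passed and 2 were called. All 21 had a fitted log2 difference below 0, against 5357 of 8869 autosomal genes tested. The other genes of the array did not enter the fit. The span of the array ranged from 0.850 to 1.02 in WT and from 0.498 to 0.656 in CFAP20-KO plates, without overlap. Its log2 ratio was -0.70 ± 0.19. ZSCAN18 (58083842 to 58118426), a zinc finger gene with a SCAN domain, had medians of 0.977 and 0.253 and a fitted log2 difference of -1.55 ± 0.38 (SE, limma adjusted p = 0.0161), lost without plate 1 or 5. ZSCAN5A (56221303 to 56368278), the member with the most molecules (1225), had medians of 1.08 and 0.659 and a difference of -0.86 ± 0.21 (limma adjusted p = 0.0112), lost without plate 7. EDDM13, whose body lies inside ZSCAN5A and shares its molecules, was at -1.50 ± 0.41 (limma adjusted p = 0.0425) and was called in 4 of 12 other settings, not with cells of at least 5000 molecules, with TMM scaling or without plates 1, 2, 3, 4, 5 or 7.

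The remaining named genes are landmarks. MYH14, a non-muscle myosin heavy chain and the gene of no family with the most molecules, had medians of 0.972 in WT and 0.980 in CFAP20-KO plates. POLD1, the catalytic subunit of DNA polymerase delta, had medians of 0.735 and 0.711 with a fitted log2 difference of 0.12 ± 0.35 (SE). Both lie in the first Mb, before the edge, and the ranges of the genotypes overlapped. PPP1R12C, host of the AAVS1 integration site, and TRIM28, the co-repressor of KRAB zinc finger proteins, held 101 and 34 molecules and did not enter the fit.

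Timing is the mean position, from 0 for the first cell to 1 for the last in the S-phase order, of the cells in which a stretch was labelled, weighted by molecules. Within WT cells the gene families were copied at different times. By family span, 22 of 28 pairs differed with an adjusted p under 0.05 (exact two-sided permutation by flipping signs of 8 plates, Benjamini-Hochberg over the pairs; the smallest p it allows is 0.00781). The spans of the lower zinc finger genes and of the NLRP genes enclose other families, however, and that of the microRNAs runs on to MIR935. With the densest run of each family, without MIR935, 19 of 28 pairs differed. The lower zinc finger run still contains the FPR genes, SIGLEC5 and SIGLEC14 and shares their molecules; when it was begun after the last FPR gene, 20 of 28 pairs differed. The runs were chosen after the data were seen, and KIR had no molecules and no timing. These counts of pairs include those with LILR, whose few molecules give no timing of the family.

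With the densest runs, the order began with the NLRP run at 0.403 ± 0.044, followed by FPR at 0.425 ± 0.088 (SD, n = 8). The few LILR molecules stood at 0.437 ± 0.137, from which no place in the order is read. NLRP, FPR and LILR did not differ beyond their spread. The exact permutation p, adjusted, was 0.555 for NLRP against FPR and 0.820 for FPR against LILR, which held 145 molecules and had the widest spread. LILR was also not separated from the upper zinc finger run (exact permutation, adjusted p = 0.149). The upper zinc finger run came next at 0.514 ± 0.050, later than the NLRP run in 8 of 8 plates by 0.111 ± 0.042 (exact permutation, adjusted p = 0.0146). The C19MC microRNAs stood beside it at 0.521 ± 0.098 (difference 0.00675 ± 0.062, exact permutation, adjusted p = 0.770), and were later than NLRP by 0.118 ± 0.087 in 7 of 8 plates (exact permutation, adjusted p = 0.0345). With MIR935 the microRNA span had a timing of 0.364 ± 0.042. SIGLEC stood at 0.579 ± 0.071 and was not separated from the upper zinc fingers (difference 0.064 ± 0.064, later in 6 of 8 plates, exact permutation, adjusted p = 0.0656). With whole spans that difference was 0.087 ± 0.062 and passed (exact permutation, adjusted p = 0.0199).

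KLK at 0.681 ± 0.056 and the lower zinc finger run at 0.694 ± 0.049 were the last families to be labelled. With equal weight per cell KLK stood at 0.590. KLK was later than SIGLEC by 0.102 ± 0.040 in 8 of 8 plates (exact permutation, adjusted p = 0.0146), and the lower zinc fingers were later than the upper ones by 0.180 ± 0.023, also in 8 of 8 plates (exact permutation, adjusted p = 0.0146). KLK and the lower zinc finger run did not differ beyond their spread (0.013 ± 0.047, exact permutation, adjusted p = 0.543). Without the stretch shared with SIGLEC and FPR, the lower zinc finger run stood at 0.734, later than KLK by 0.054 ± 0.049 in 7 of 8 plates (exact permutation, adjusted p = 0.0230), while by whole spans KLK was the later one by 0.096 ± 0.038 (exact permutation, adjusted p = 0.0115). The order of KLK and the lower zinc fingers therefore changed with the stretch taken for the zinc fingers.

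**Figure D3:**
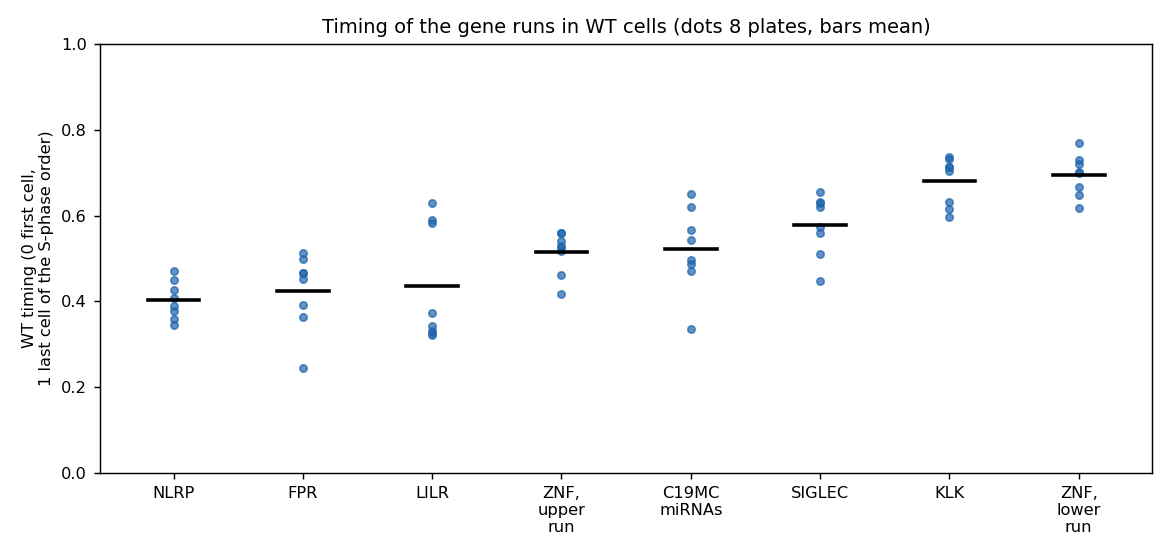
WT timing of the densest run of each gene family in the 8 plates (dots) with the mean (bars), from 0 for the first to 1 for the last cell of the S-phase order. All NLRP plates lie below 0.5, and all KLK and lower zinc finger plates lie above 0.59.

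Zinc finger genes of both runs have promoters mostly rich in CpG, and their runs differed in timing within the chromosome arm. Whether promoter CpG bears on timing was not tested. At finer scale WT timing ran in waves. It went from 0.336 ± 0.032 in the first 200 kb to 0.820 ± 0.039 at 53 to 53.2 Mb over ZNF genes, and stood at 0.259 ± 0.021 at 53.8 to 54 Mb. A later peak of 0.809 ± 0.061 lay at 56.6 to 56.8 Mb, next to the imprinted gene PEG3, with 0.185 ± 0.045 before it at 55.6 to 55.8 Mb and 0.215 ± 0.063 after it at 57.2 to 57.4 Mb. Over 33 bins, which share libraries and neighbours, the number of genes per bin and WT timing had Pearson's r = -0.26 and Spearman's rho = -0.18, a description only.

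Among 7 single windows with at least 10 WT molecules on every plate, the earliest was a window without a protein-coding gene at 50.12 to 50.14 Mb, at 0.380 ± 0.083. The window of NLRP4 and NLRP13 at 55.88 to 55.90 Mb followed at 0.441 ± 0.142, and that of CEACAM18 and SIGLEC12 at 51.48 to 51.50 Mb at 0.585 ± 0.104. The 3 latest were those of KLK14 and CTU1 at 0.628 ± 0.135, KLK13 at 0.655 ± 0.174 and ZNF83 at 0.682 ± 0.15 (SD, n = 8). The differences between these 3 were smaller than their SDs, and no order is read from them.

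Timing differed between the genotypes mostly in the first 4 Mb. Of 44 bins of 200 kb, 33 had at least 20 molecules in every library; of these 13 were called earlier and 5 later in CFAP20-KO cells (limma on timing centred on the median of each library), against 12.7% and 16.5% of 12524 autosomal bins. Because the contrast is the one that chose the stretch, nothing is read from these shares. The 13 earlier bins are all of the tested bins from 51 to 53.8 Mb, over SIGLEC and the lower zinc fingers. In the bin from 52.0 to 52.2 Mb, timing was 0.677 ± 0.046 in WT and 0.434 ± 0.086 in CFAP20-KO cells, earlier in 8 of 8 plates, the greatest shift at -0.25 ± 0.03 (SE).

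Bins later in CFAP20-KO cells lay from 50.2 to 50.8 Mb, around MYH14 and POLD1, and from 57.2 to 57.6 Mb. At 50.4 to 50.6 Mb timing was 0.356 ± 0.097 in WT and 0.579 ± 0.091 in CFAP20-KO cells, later in 8 of 8 plates. POLD1 itself stood at 0.268 ± 0.121 and 0.516 ± 0.125. From 55 Mb to the end, timing was 0.468 ± 0.045 in WT and 0.50 ± 0.039 in CFAP20-KO cells, with the deficit in molecules present nonetheless. Over the 33 bins the log2 ratio of molecules was not tied to WT timing (r = 0.04) and hardly to the shift in timing (r = 0.19), again a description of bins that share libraries.

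**Figure D4:**
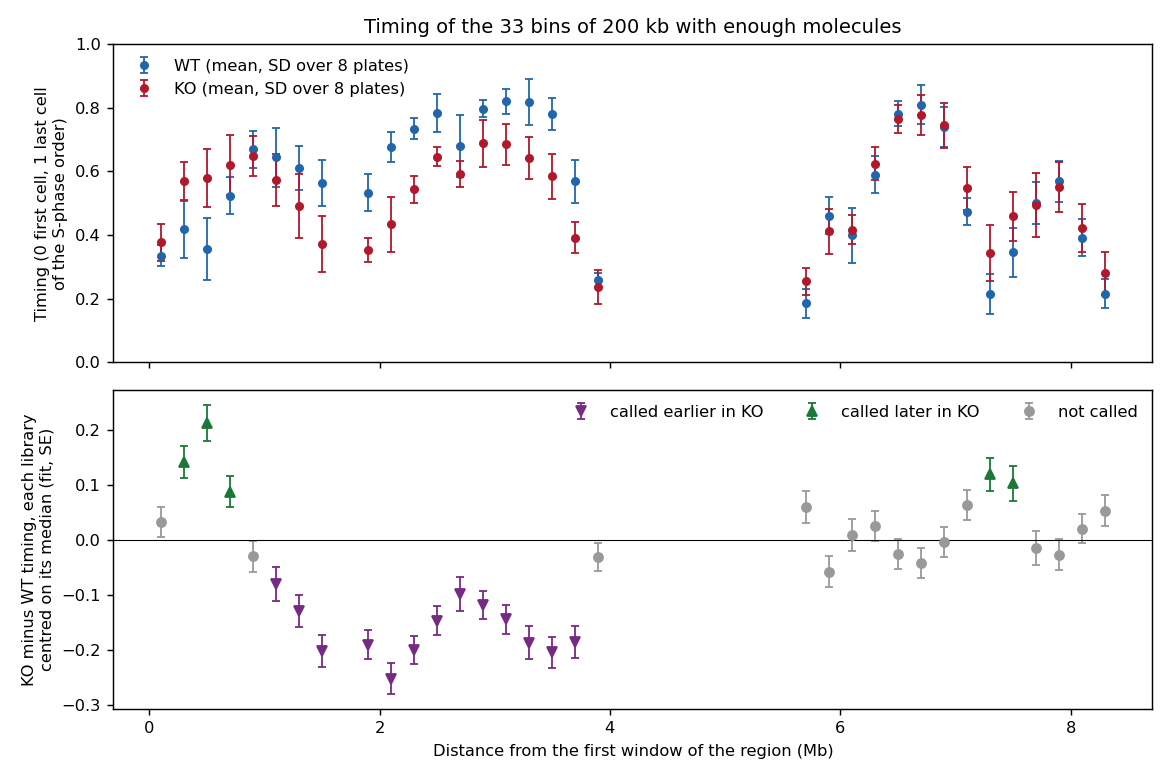
Timing in WT and CFAP20-KO cells in bins of 200 kb (top, mean and SD over 8 plates) and the fitted difference with its standard error (bottom), against the distance from the first window. The bins called earlier lie together between 1 and 3.8 Mb, and the bins called later before them and near 7.4 Mb.

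The deficit in molecules fell into separate patterns when cells were divided into 3 terciles of the S-phase order, early, middle and late, and molecules were scaled within each. The middle tercile held mostly weakly labelled cells, 416 WT cells with 2020076 molecules and 394 CFAP20-KO cells with 1439579. Of cells with at least 5000 molecules, 46 WT and 43 CFAP20-KO cells were middle, against 224 and 164 early and 213 and 224 late. For the middle tercile, depth and position in S phase cannot be told apart. From 51 to 53 Mb, WT density was 0.599 ± 0.110 in early and 1.41 ± 0.15 in late cells, while CFAP20-KO density was 0.670 ± 0.058 and 0.577 ± 0.073. The log2 ratio was thus 0.18 ± 0.23 in early cells, -0.72 ± 0.32 in middle cells and -1.29 ± 0.17 in late cells, with 2, 8 and 8 of 8 plates below 0. The late ratio was lower than the early one in 8 of 8 plates, by 1.47 ± 0.35 on average. From 53 to 55 Mb the early ratio was 0.63 ± 0.28, above 0 in 8 of 8 plates, and the late ratio -0.65 ± 0.40, so the near-equal totals there hold differences of opposite sign.

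From 55 Mb to the end the ratio was -0.72 ± 0.14 in early, -0.38 ± 0.24 in middle and -0.76 ± 0.26 in late cells, below 0 in 8 of 8 plates in each tercile. Late minus early was -0.04 ± 0.23, with 5 of 8 plates below 0. Within the families, the lower zinc finger run had 0.46 ± 0.22 in early and -1.05 ± 0.28 in late cells, SIGLEC 0.07 ± 0.43 and -1.33 ± 0.51, and the upper zinc finger span -0.72 ± 0.16 and -0.77 ± 0.27. The FPR span reached -2.62 ± 0.75 in late cells, with 140 molecules in WT and 12 in CFAP20-KO cells. The C19MC run, without MIR935, had 0.47 ± 1.08 in early and -1.45 ± 1.00 in late cells. It held 214 molecules in WT and 158 in CFAP20-KO cells of the early tercile, and 254 and 61 in the late one. KLK had 0.30 ± 0.65 in early and -0.51 ± 0.52 in late cells, while 50 to 51 Mb, which holds most of it, had -0.42 ± 0.35 and 0.17 ± 0.39. The NLRP run had -0.63 ± 0.36 and -1.35 ± 0.86, with a late minus early difference of -0.72 ± 0.93.

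**Figure D5:**
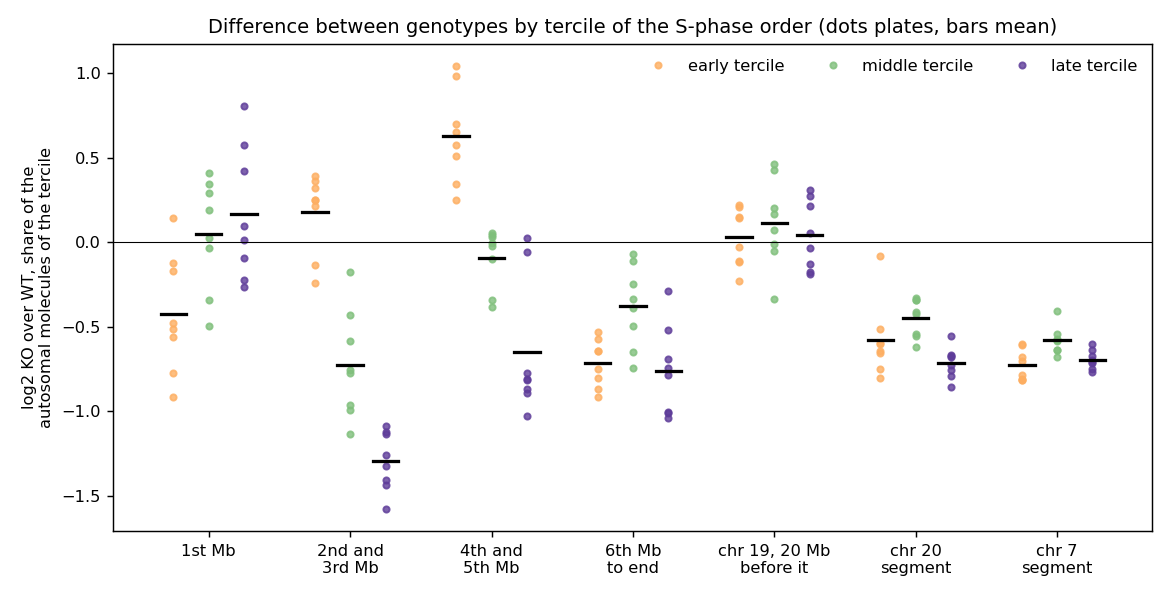
Log2 ratio of CFAP20-KO to WT molecules per plate (dots) with the mean (bars) in early, middle and late terciles of the S-phase order, for 4 zones of the stretch (50 to 51, 51 to 53, 53 to 55 and 55 Mb to the end) and 3 comparison segments. In the zone of the 2nd and 3rd Mb the late tercile lies between -1.58 and -1.09 on all plates while the early tercile is near or above 0; from the 6th Mb on all terciles lie below 0, with the middle one nearest to it, as in the segments of chromosomes 20 and 7. The middle tercile holds mostly weakly labelled cells.

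A pair of other autosomal segments known from the same data to have fewer molecules in CFAP20-KO cells gives a measure of these patterns. Chromosome 20 up to 25 Mb had a log2 ratio of -0.61 ± 0.08, and chromosome 7 from 105000001 to its end -0.68 ± 0.04, both lower in 8 of 8 plates. Their early and late terciles had -0.58 ± 0.22 and -0.71 ± 0.09 on chromosome 20, and -0.73 ± 0.09 and -0.69 ± 0.06 on chromosome 7. The values from 55 Mb on lie beside these, and those from 51 to 53 Mb do not, with a late minus early difference of -1.47 against -0.13 ± 0.26 and 0.03 ± 0.08. These segments were chosen on the same contrast, so the differences were not tested. With equal weight per cell their ratios were -0.34 ± 0.10 and -0.36 ± 0.04, nearer to 0 like that of the end of chromosome 19.

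Single cells with at least 5000 molecules, 483 WT and 431 CFAP20-KO, showed how the deficit was spread, although cells of a plate are not replicates. Each was thinned to 5000 molecules, because median depth was 25127 in WT and 17483 in CFAP20-KO cells. In late cells, 12.2% of 213 WT and 37.1% of 224 CFAP20-KO cells then had no molecule from 51 to 53 Mb (11.3 ± 8.16% and 36.9 ± 9.42% over plates; 2.35% and 15.6% before thinning). In early cells the shares were 29.9% and 23.8%. From 55 Mb to the end 3.93% of all WT and 12.8% of all CFAP20-KO cells had none, and the median thinned cell held 5 and 3 molecules there. Most CFAP20-KO cells thus still carried label in both zones. The median fragment in the stretch was 241 bases long in WT and 235 in CFAP20-KO cells, against 240 and 239 on the rest of the chromosome.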

How the data were processed

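Labelled DNA was read in single cells from 8 plates. Each deposited file lists fragments with chromosome, position, well and genotype; these positions and labels are other values than counts, per the file headers, and no normalisation is stated. The build is GRCh38 per the submitters' processing notes. Aligner and duplicate removal: not given in the sources used here. Since the base of positions is unstated, positions were taken as starting at 0. Repeats of a position and direction within a cell were 3.26% to 4.62% of fragments and were kept. Fragments were summed per genotype and plate over cells with at least 1000 autosomal molecules. Cells were ordered by correspondence analysis of 500 kb bins (first axis 18.8% of the inertia), and the order without chromosome 19 correlated with it at 0.9999. Molecules were fitted with limma voom without a block; windows needed a mean of 5 and genes of 10 molecules per library, and ratios per plate used a pseudocount of 0.5 molecules. Single values were compared by exact sign-flip permutation over plates. The steps were tested on simulated data. Titles put both genotypes on each plate, so plates pair the libraries by design; over 8869 genes the deviations of a plate's 2 libraries correlated at 0.0161 on average (-0.0464 to 0.0460), and those of different plates at -0.00232. Members, gene lists and tests were chosen with earlier results of these data known. Named genes are the called ones, the member of each family with the most molecules and fixed landmarks; others are marked in the text. Tools were R 4.3.3, limma 3.58.1, Python 3.11.15, numpy 2.4.6, pandas 2.3.3, scipy 1.17.1 and matplotlib 3.10.9.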

Additional observations from a re-analysis of the deposited data

Results flagged for a closer look

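The log2 ratio of CFAP20-KO to WT molecules over the KLK span was 0.41 on plate 2, far from the other 7 plates, which lay between -0.31 and -0.03. It was the only value of this kind among 40 groups of 8 plates checked, and chance marks about 1 in 20 such groups. Outside the main measurement, 566 fragments lay on alternate contigs of chromosome 19 with LRC or KIR in their names, while the KIR span of the chromosome itself held 0 molecules; whether the placing of fragments bears on this was not tested.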

How the results depend on the processing

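With the plate as a replicate block, 5 windows, 10 genes, 13 earlier and 5 later timing bins were called, against 3, 10, 13 and 5 without it, and it changed no other count. Windows of 100 kb gave 16 lower windows. Bins of 500 kb gave 6 earlier and 3 later timing bins, and cells with at least 5000 molecules gave 3 later bins and 5 lower genes. Leaving out each plate in turn gave 1 to 3 lower windows (1 without plate 3), 11 to 14 earlier and 4 to 6 later bins, and 4 to 10 lower genes (4 without plate 1 or 7, and 6 without plate 2, 3 or 5). With equal weight per cell the log2 ratio of the whole stretch was -0.27, and the KLK and LILR spans turned to 0.022 and 0.40. WT timing of the KLK span, 0.681 in the main setting, was 0.590 with equal weight and 0.604 with cells of at least 5000 molecules. That of the NLRP span went from 0.288 to 0.352 with equal weight. In these 2 settings 21 and 24 of 28 pairs of spans differed in WT timing, against 22 in the main setting. The 914 cells of at least 5000 molecules were ordered anew (correlation with the main order 0.962) and divided into new terciles, which are other sets of cells. Their late tercile stood at -1.07 over the whole stretch and -1.87 from 51 to 53 Mb, and their middle tercile at -0.66 from 55 Mb on. The cause of these shifts was not tested. The zones, the densest runs, the microRNA run without MIR935, the zinc finger run after the last FPR gene and the value without the bin of lowest ratio were chosen after seeing the data. Depth limits single genes: most hold under 10 molecules per library, and the LILR span held 145 in all.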
